A study of Mus musculus with 16 samples.

Results

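The mitotic kinesins are motor proteins that move on microtubules, or shorten them, while a cell divides. The 10 genes of this kind described here are Kif11, Kif15, Kifc1, Kif4, Kif2c, Kif18b, Kif23, Kif20a, Kif20b and Kif14. They are 10 of 49166 genes with a matched transcript and of 16971 tested, and all 10 passed the filter on low counts. They were chosen by their measured values: some of the mitotic kinesins whose RNA was lower in the cultures given enzalutamide were listed by name. Their values in the 2 comparisons with enzalutamide are therefore a description and support nothing. The use of their transcripts and the letters of their promoters were not used to list them. Nor were the comparisons for dihydrotestosterone alone and for the Chd1 guide, but these share libraries with the 2 comparisons that were. The values there are therefore not independent of the listing, and how far it shaped them was not tested. Cenpe and Kif22, given with the other kinesins, were lower with enzalutamide too and are not among the 10.

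RNA was sequenced from neural progenitor cells grown from the cortex of mouse embryos at E18.5 (counted in days of gestation). In the KO DHT+ENZ group, cells had received a lentivirus with Cas9 and a guide against Chd1, which encodes a chromatin remodeller, and were given 10 µM enzalutamide (ENZ, an androgen receptor antagonist) 30 min before 10 nM dihydrotestosterone (DHT, an androgen) for 24 h. KO DHT cells carried the same guide and had DHT alone, and KO DMSO cells carried it and had the solvent. WT DMSO cells had a lentivirus with Cas9 and no guide, are labelled wild type, and had the solvent. Every group, controls included, was transduced and selected with puromycin for 48 h, and each has 4 biological replicates grown from embryos of 2 litters. The labels name no clone, and the litter of each replicate is not given. No WT cells had DHT and no cells had ENZ without DHT, so an effect of ENZ that needs neither DHT nor the guide cannot be told apart from one that does.

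A dividing cell builds a bipolar spindle, attaches each chromosome to it, pulls the copies apart and then cuts itself across the midzone. Kinesins do much of this work: some push the poles apart, some focus them, some trim microtubule ends, and some carry the proteins that place the cut. In cortical progenitors these genes are known from the small brains that follow when several of them are lost. Their transcripts are made in each cell cycle and peak in G2 phase and mitosis, so in bulk RNA a smaller share of dividing cells and less RNA per dividing cell cannot be told apart.

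Libraries held 31.8 to 36.9 M estimated counts, except WT DMSO replicate 1 with 20.2 M. Chd1 RNA averaged 67.3 ± 2.68 CPM (counts per 1 M of the library's size, adjusted by its TMM factor) in KO DMSO and 66.7 ± 5.73 CPM in WT DMSO (SD, n = 4 each). The log2 fold change was 0.01 (SE 0.08). Where the guide cuts is not given in the sources used here, so this level does not check the knockout. Of 8 progenitor markers, 7 averaged at least 1 TPM (deposited abundance per length, scaled to a fixed sum), and Hes5 averaged less. Their summed level spanned 6328 to 7689 TPM in KO DHT+ENZ, 6799 to 7833 in KO DHT, 6950 to 8349 in KO DMSO and 6936 to 8201 in WT DMSO. The 6 neuronal markers summed to between 249 and 518 TPM in single libraries, most of it Map2 (mean of 348 TPM) and Tubb3 (37.6), while Dcx, Rbfox3 and Stmn2 averaged under 1 TPM. The 5 markers of the oligodendrocyte lineage summed to between 440 and 595 TPM, most of it Olig2 (493) and Cspg4 (14.1), with Pdgfra, Sox10 and Mbp under 1 TPM. The 4 astrocyte markers summed to between 31.5 and 137 TPM, most of it Aldh1l1 (74.04) and S100b (11.5), with Aqp4 under 1 TPM. The ranges of these 3 sums overlapped between all 4 groups. Markers of microglia summed to at most 5.40 TPM, those of endothelium to at most 4.99 and those of pericytes and fibroblasts to at most 2.87 TPM in any library.

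All 10 kinesins were lower in KO DHT+ENZ than in KO DHT and than in KO DMSO. Summed over the 10 genes, the deposited level per length averaged 236 ± 15.4 TPM in KO DHT+ENZ, 369 ± 23.8 in KO DHT, 354 ± 43.2 in KO DMSO and 355 ± 23.6 in WT DMSO (SD, n = 4 each). Each of the 4 KO DHT+ENZ libraries, at 251, 216, 234 and 244 TPM, was below each of the other 12, which ran from 296 to 399 TPM. Log2 fold changes over KO DHT ran from -0.75 for Kif14 to -0.40 for Kif23, a median of -0.57 beside -0.002 for all genes tested. Over KO DMSO they ran from -0.69 for Kif20a to -0.45 for Kif20b, a median of -0.57 beside 0.006 for all genes. These 2 comparisons share the KO DHT+ENZ libraries, and KO DHT and KO DMSO each enter another comparison given below, which is therefore not independent of the listing.

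The groups did not overlap for 10 of 10 members in either comparison, as for 2.97% of all genes against KO DHT and 3.18% against KO DMSO. Of all genes, 0.684% had their 4 KO DHT+ENZ libraries below all 12 others, and 9 of the 10 members did. The exception was Kif11, whose highest KO DHT+ENZ library, at 97.8 CPM, was above WT DMSO replicate 1 at 87.9 CPM. Kif15 came close to that library too, with 42.5 CPM in its highest KO DHT+ENZ library and 42.6 CPM in WT DMSO replicate 1. Taking libraries of one replicate number as a pair, all 40 differences of a member were below 0 against KO DHT, and all 40 against KO DMSO. Of all genes, 14.2% were lower in 4 of 4 pairs against KO DHT and 15.6% against KO DMSO. The mean over the 10 genes was -0.58, -0.62, -0.57 and -0.53 in pairs 1 to 4 against KO DHT, and -0.60, -0.46, -0.51 and -0.65 against KO DMSO.

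**Figure D1:**
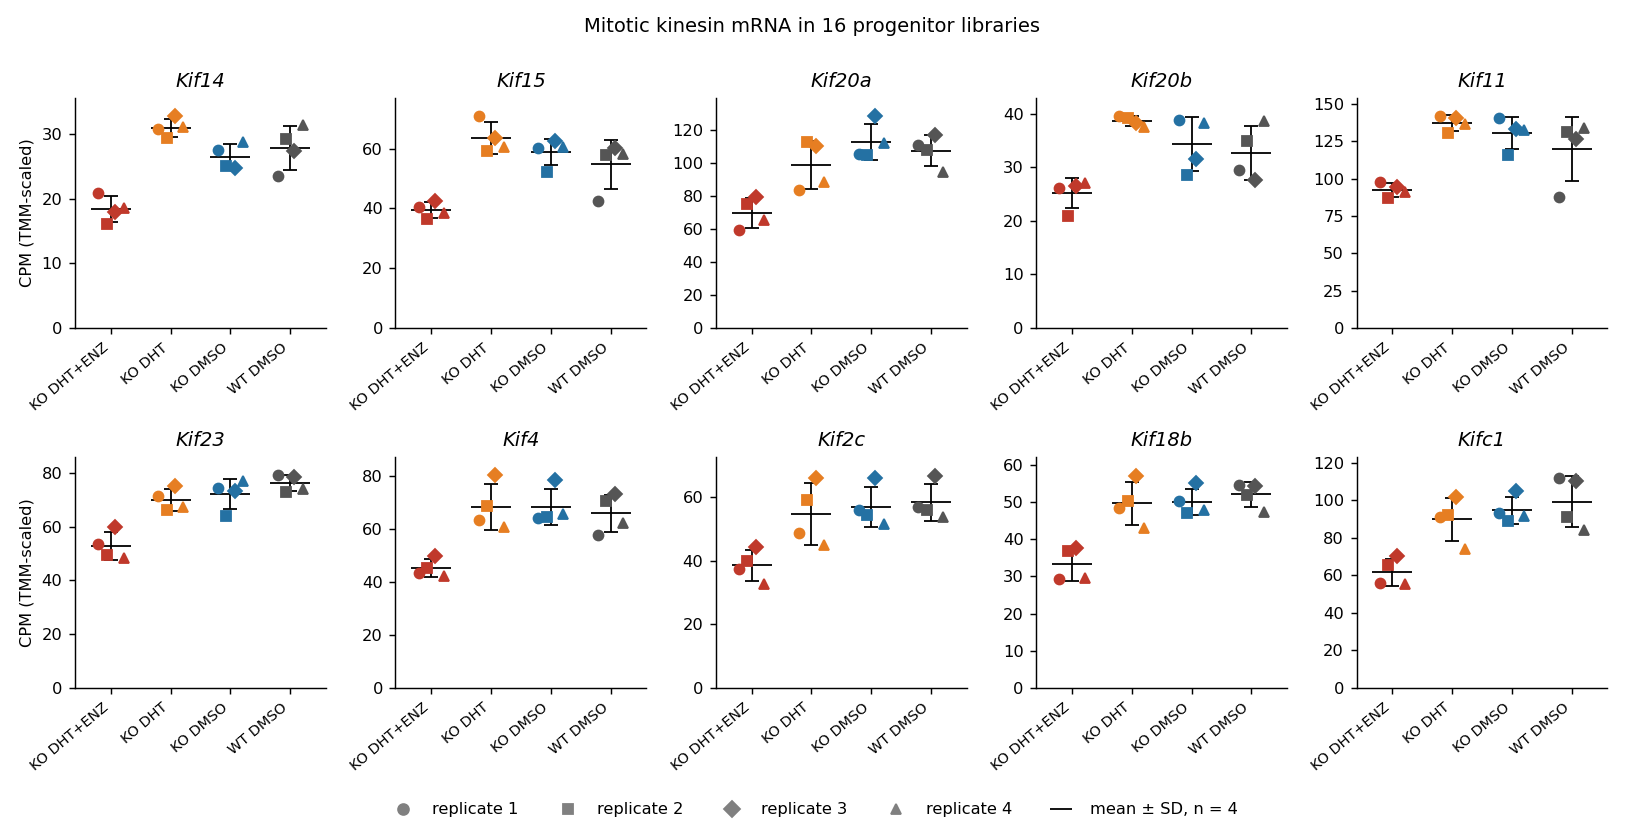
Normalised expression (CPM, linear axis from 0) of the 10 kinesins in each library, by group from left to right KO DHT+ENZ, KO DHT, KO DMSO and WT DMSO; marker shape gives the replicate number, the horizontal line the mean and the bar 1 SD (n = 4). In 9 of 10 panels the 4 KO DHT+ENZ points lie below the other 12, and in the Kif11 panel WT DMSO replicate 1 lies among them.

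The promoters of 9 of the 10 genes were in the RefSeq table, as 250 bases before to 50 bases after the start on build GRCm38.p6. Genes of G2 phase and mitosis are known to carry the CHR, a short element with the letters TTTGAA or TTCGAA that is read by MuvB complexes, and often CCAAT boxes, which bind NF-Y. TTTGAA, searched on both strands, was found in 9 of 9 member promoters, against 12.7% of the 15392 promoters of genes tested and 17.9% of all 32851. It was in 5 of 27 promoters of other kinesins, 12 of 18 of kinesin partners and 1 of 14 of dynein and dynactin genes. Within 50 bases of the start, a window chosen after the hits were seen, it was in 7 of 9 members and in 3.22% of the promoters of genes tested. In that window it was in 12 of 18 kinesin partners, 4 of 27 other kinesins and 0 of 14 dynein and dynactin genes. TTCGAA was in 0 of 9 and in 1.90% of the promoters of genes tested. CCAAT, also searched on both strands, was in 6 of 9 against 37.7%, and no match of it overlapped a TTTGAA in these 9. It was in 13 of 18 promoters of kinesin partners, 11 of 27 of other kinesins and 4 of 14 of dynein and dynactin genes.

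The stretches of 30 bases around the match nearest the start are shown to compare its place and neighbours, with TTTGAA or its reverse complement TTCAAA in capitals. Each is written 5′ to 3′ on the gene's own strand, with coordinates on GRCm38.p6.
Kif11, chr19:37376351-37376380, plus strand: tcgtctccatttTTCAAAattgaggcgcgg
Kif15, chr9:122951050-122951079, plus strand: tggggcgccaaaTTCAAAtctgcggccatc
Kifc1, chr17:33890615-33890644, minus strand: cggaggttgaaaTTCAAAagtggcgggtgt
Kif4, chrX:100626072-100626101, plus strand: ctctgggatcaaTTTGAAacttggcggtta
Kif2c, chr4:117178858-117178887, minus strand: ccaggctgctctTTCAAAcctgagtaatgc
Kif18b, chr11:102925104-102925133, minus strand: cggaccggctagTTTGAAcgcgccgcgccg
Kif23, chr9:61946780-61946809, minus strand: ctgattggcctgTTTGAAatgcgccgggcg
Kif20b, chr19:34922353-34922382, plus strand: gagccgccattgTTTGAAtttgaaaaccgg
Kif14, chr1:136467608-136467637, plus strand: ggaggtcctgtcTTTGAAgtctgcagtgtc
Counting the start as base 1, with no base 0, the match begins at -19 in Kif11 and Kif15 and at 2 to 20 in Kifc1, Kif23, Kif18b, Kif20b and Kif4. It begins at -103 in Kif2c and at -228 in Kif14. Kif20b carries another copy, in lower case, directly after the one in capitals. The bases beside the match are not the same in all genes, though some recur. Kif15 and Kifc1 share aaa directly before it. Kif4 and Kifc1 carry ggcgg shortly after it, and Kif20b the reverse complement ccgcc shortly before it. Their recurrence was not tested. A match is a string of letters and not a measured binding site.

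Kif18b and Kifc1 are shown over 100 bases, from 90 before to 10 after the start, because each holds 2 CCAAT boxes before the start and a TTTGAA at it. Capitals mark CCAAT or its reverse complement ATTGG, and TTTGAA or TTCAAA.
Kif18b, chr11:102925115-102925214, minus strand: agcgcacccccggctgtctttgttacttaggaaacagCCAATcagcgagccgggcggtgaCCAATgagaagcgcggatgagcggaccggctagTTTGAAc
Kifc1, chr17:33890624-33890723, minus strand: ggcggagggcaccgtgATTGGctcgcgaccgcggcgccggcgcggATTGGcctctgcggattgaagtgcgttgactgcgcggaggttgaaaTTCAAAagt
In Kif18b both CCAAT boxes read on the gene's strand and in Kifc1 both read on the other. Across the 16 libraries Kifc1 was the gene nearest to Kif18b in pattern, with differences in level removed, by the measure given with the like genes. The gene nearest to Kifc1 was Incenp. Whether promoter letters go with pattern was not tested.

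Kif11, Kif15 and Kifc1 set the distance between the spindle poles. Kif11 is a motor with heads at both ends that slides antiparallel microtubules apart, and it is needed for a bipolar spindle. Kif11 was at 97.8, 86.96, 94.3 and 91.1 CPM in KO DHT+ENZ, 142, 130.2, 141 and 136 CPM in KO DHT, 141, 116, 133 and 133 CPM in KO DMSO and 87.9, 131, 126 and 134 CPM in WT DMSO, in order of replicates 1 to 4. KO DHT+ENZ was the lowest group, its range clear of KO DHT and KO DMSO, and WT DMSO replicate 1 stood below the other 3 WT libraries. The log2 fold change of KO DHT+ENZ was -0.57 (SE 0.11) over KO DHT and -0.50 (SE 0.11) over KO DMSO. The differences against KO DHT in the 4 pairs, -0.54, -0.58, -0.58 and -0.58, were the narrowest of the 10 genes.

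Kif15 works beside Kif11 and helps keep the poles apart once they have separated. Kif15 stood at 40.4, 36.5, 42.5 and 38.5 CPM in KO DHT+ENZ, 70.9, 59.2, 63.5 and 60.6 CPM in KO DHT, 60.2, 52.2, 62.4 and 60.5 CPM in KO DMSO and 42.6, 57.9, 60.2 and 58.01 CPM in WT DMSO. KO DHT replicate 1 was the highest library, and WT DMSO replicate 1 was close to the KO DHT+ENZ range. Its log2 fold change of -0.69 (SE 0.11) over KO DHT was the second lowest of the members, a change of -37.9%, and over KO DMSO it was -0.57 (SE 0.11).

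Kifc1 walks the opposite way, towards microtubule minus ends, draws microtubules together and focuses the poles. Its libraries held 55.8, 65.3, 70.1 and 55.3 CPM in KO DHT+ENZ, 91.1, 92.4, 102 and 74.2 CPM in KO DHT, 93.1, 88.9, 105 and 91.5 CPM in KO DMSO and 112, 91.1, 110.2 and 84.3 CPM in WT DMSO. KO DHT+ENZ lay below all other libraries, the nearest of which was KO DHT replicate 4. Kifc1 differed by -0.54 (SE 0.12) on the log2 scale from KO DHT and by -0.62 (SE 0.12) from KO DMSO. Of the 31-base stretches of its leading transcript, 64.9% also occur in transcripts of other genes of the GENCODE M21 annotation, 58.8% in the near-identical Kifc5b, so how reads were split between the pair is uncertain. Summed over both genes, the level was 75.05, 80.4, 87.8 and 73.7 CPM in KO DHT+ENZ, 116, 113, 125 and 96.5 in KO DHT, 121, 110.2, 129 and 118 in KO DMSO and 143, 111, 132 and 109.7 in WT DMSO. The KO DHT+ENZ sums were below all others, with a log2 ratio of means of -0.51 over KO DHT and -0.59 over KO DMSO.

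Kif4, Kif2c and Kif18b act on chromosome arms and microtubule ends. Kif4 is a chromokinesin that binds chromosome arms and, with Prc1, limits the length of midzone microtubules. Kif4 had 43.1, 45.3, 49.7 and 42.1 CPM in KO DHT+ENZ, 63.1, 68.6, 80.1 and 60.6 CPM in KO DHT, 64.2, 64.3, 78.5 and 65.7 CPM in KO DMSO and 57.8, 70.3, 72.98 and 62.1 CPM in WT DMSO. In each group replicate 3 was the highest library, and the KO DHT+ENZ range stopped short of every other. Log2 fold changes were -0.60 (SE 0.11) over KO DHT and -0.60 (SE 0.11) over KO DMSO. Its pattern over the 16 libraries was the nearest of the 10 to their mean, with a root mean square difference of 0.07 in centred log2 CPM.

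Kif2c does not walk but takes tubulin off microtubule ends, which frees wrongly attached chromosomes. Kif2c was measured at 37.2, 39.99, 44.2 and 32.6 CPM in KO DHT+ENZ, 48.8, 59.1, 66.00 and 44.8 CPM in KO DHT, 55.8, 54.4, 65.97 and 51.4 CPM in KO DMSO and 56.96, 55.8, 66.7 and 53.8 CPM in WT DMSO. Replicates 2 and 3 were higher than 1 and 4 in both DHT groups, and the gap between groups was small, with 44.2 CPM in the top KO DHT+ENZ library and 44.8 CPM in the lowest KO DHT library. The log2 fold change was -0.51 (SE 0.13) over KO DHT and -0.56 (SE 0.13) over KO DMSO. Pair differences ran from -0.39 to -0.58 against KO DHT and from -0.44 to -0.66 against KO DMSO.

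Kif18b moves to the plus ends of astral microtubules and shortens them, in part with Kif2c. Kif18b libraries gave 29.3, 36.7, 37.6 and 29.6 CPM in KO DHT+ENZ, 48.4, 50.2, 57.2 and 43.2 CPM in KO DHT, 50.2, 47.1, 55.1 and 47.9 CPM in KO DMSO and 54.6, 51.9, 54.5 and 47.5 CPM in WT DMSO. The highest KO DHT+ENZ library, at 37.7 CPM, was well below the lowest of the 12 others, at 43.2 CPM. Kif18b changed by -0.58 (SE 0.11) over KO DHT and -0.59 (SE 0.11) over KO DMSO, on the log2 scale.

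Kif23, Kif20a, Kif20b and Kif14 act at the midzone and midbody, where the cell is cut. Kif23 forms the centralspindlin complex with Racgap1 and bundles midzone microtubules. Kif23 read 53.5, 49.5, 59.9 and 48.5 CPM in KO DHT+ENZ, 71.4, 66.1, 74.98 and 67.5 CPM in KO DHT, 74.3, 63.96, 73.3 and 77.05 CPM in KO DMSO and 79.4, 73.05, 78.5 and 74.2 CPM in WT DMSO. It had the highest level per length of the members in WT DMSO, a rank that counts its short transcripts, as given with the levels below. Its difference with ENZ over KO DHT was the smallest of the members, -0.40 (SE 0.08), a change of -24.5%. Over KO DMSO the log2 fold change was -0.45 (SE 0.08).

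Kif20a carries the chromosomal passenger complex to the midzone. Kif20a reached 59.5, 74.9, 79.2 and 65.5 CPM in KO DHT+ENZ, 83.8, 112, 110.0 and 88.3 CPM in KO DHT, 106, 105, 128 and 112 CPM in KO DMSO and 111, 108, 117 and 94.2 CPM in WT DMSO. In KO DHT, replicates 1 and 4 stood between the KO DHT+ENZ and KO DMSO ranges, while replicates 2 and 3 were at the KO DMSO level. The log2 fold change with ENZ was -0.50 (SE 0.12) over KO DHT and -0.69 (SE 0.12) over KO DMSO, the largest of the members in the second comparison. Of the leading transcript's 31-base stretches, 32.6% occur in transcripts of Cdc23, with which it overlaps, so without a stated strand its level is uncertain in part.

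Kif20b works in late cytokinesis, and its loss gives mice a small brain. Kif20b counted 26.1, 20.97, 26.5 and 27.1 CPM in KO DHT+ENZ, 39.6, 39.2, 38.1 and 37.5 CPM in KO DHT, 38.8, 28.5, 31.6 and 38.3 CPM in KO DMSO and 29.5, 34.96, 27.6 and 38.6 CPM in WT DMSO. KO DHT was its tightest group, and the highest KO DHT+ENZ library, at 27.1 CPM, was just below the lowest of the others, WT DMSO replicate 3 at 27.6 CPM. The log2 fold change was -0.62 (SE 0.12) over KO DHT and -0.45 (SE 0.12) over KO DMSO. Its pairs against KO DMSO ran from -0.26 to -0.57.

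Kif14 binds Prc1 and the citron kinase and is needed to finish cytokinesis. Kif14 ran at 20.8, 16.02, 17.99 and 18.53 CPM in KO DHT+ENZ, 30.7, 29.3, 32.7 and 31.1 CPM in KO DHT, 27.5, 25.1, 24.7 and 28.7 CPM in KO DMSO and 23.4, 29.3, 27.3 and 31.4 CPM in WT DMSO. It had the lowest level per length of the 10 genes and the largest difference over KO DHT, -0.75 (SE 0.10), a change of -40.7%. Over KO DMSO the log2 fold change was -0.53 (SE 0.10), a change of -30.7%.

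At an adjusted p under 0.05 in edgeR's quasi-likelihood test over all genes, 6 of the 10 members were called lower against KO DHT and 7 against KO DMSO. The background was 0.265% of genes called, 0.189% called lower, against KO DHT, and 0.253% and 0.2% against KO DMSO. With the replicate number as a block, 10 of 10 were called in each comparison, beside 3.48% and 2.94% of all genes (1.92% and 2.09% called lower). Without WT DMSO replicate 1, 8 of 10 were called in each. Against KO DHT, and without the block, 0 were called on leaving out KO DHT+ENZ replicate 2 and 1 on leaving out KO DHT+ENZ replicate 4 or KO DHT replicate 1. The count was 2 without KO DHT+ENZ replicate 1, KO DHT replicate 2 or 3, KO DMSO replicate 1 or 4 or WT DMSO replicate 2, and 4 to 6 without any of the others but WT DMSO replicate 1. Against KO DMSO, 0 were called without KO DHT+ENZ replicate 1, 2 or 4, KO DHT replicate 2, KO DMSO replicate 1, 3 or 4 or WT DMSO replicate 2. There, 1 to 4 were called without KO DHT replicate 1, 3 or 4, KO DMSO replicate 2 or WT DMSO replicate 3, and 6 without KO DHT+ENZ replicate 3 or WT DMSO replicate 4. With the block, 9 to 10 were called against KO DHT and 8 to 10 against KO DMSO, whichever library was left out. Since the members were listed from these comparisons, nothing is read from these counts. After each library was corrected for its own trend on transcript length, the log2 fold changes lay between -0.68 and -0.42 over KO DHT and between -0.68 and -0.43 over KO DMSO.

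**Figure D2:**
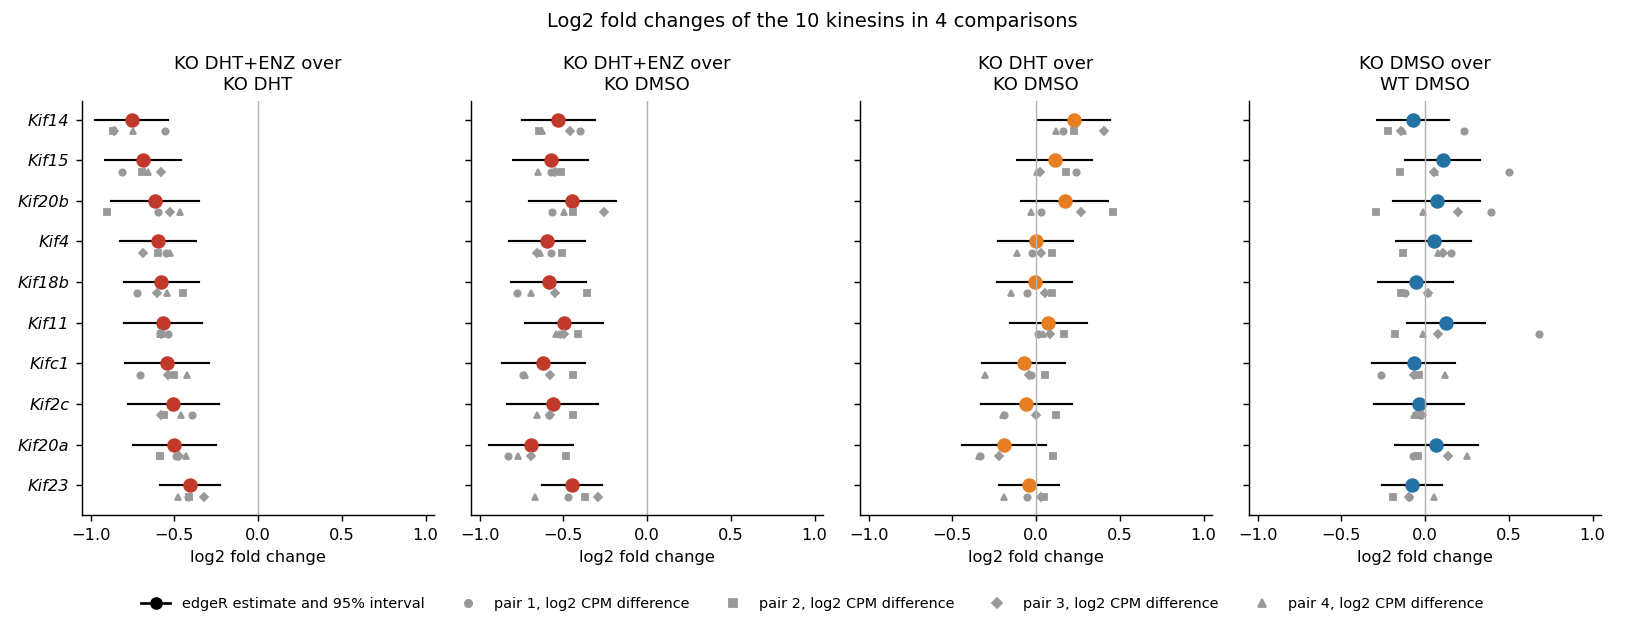
Log2 fold changes of the 10 kinesins in 4 comparisons, left to right KO DHT+ENZ over KO DHT, KO DHT+ENZ over KO DMSO, KO DHT over KO DMSO and KO DMSO over WT DMSO. Large points are edgeR estimates with 95% intervals, from the model without the block, and small gray points are the differences in log2 CPM of the 4 same-numbered pairs. All intervals lie below 0 in the 2 left panels, and in the 2 right panels all include 0 except that of Kif14 with DHT, which starts at 0.01.

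No kinesin passed the test with DHT alone. In KO DHT against KO DMSO, log2 fold changes ran from -0.19 (SE 0.12) for Kif20a to 0.23 (SE 0.10) for Kif14, with a median of -0.01 beside -0.002 for all genes. Of the 10 members, 0 were called, as were 0% of all genes, in edgeR and in DESeq2, each with and without the block. At an unadjusted p under 0.05 edgeR had 193 of 16971 genes and 1 of 10 members, Kif14 (adjusted p = 1 in edgeR). With the block it had 1358 genes and 2 members, Kif14 and Kif20a (adjusted p = 0.606 for each, edgeR). Without the block, the lowest bound of any member's 95% interval was -0.44, for Kif20a, and the highest 0.44, for Kif14. The narrowest interval in that model was that of Kif23, -0.22 to 0.13. With the block the SE was smaller, at 0.08 for Kif20a, 0.09 for Kif14 and 0.06 for Kif23. Kif14 averaged 30.9 ± 1.41 CPM in KO DHT and 26.5 ± 1.90 CPM in KO DMSO (SD, n = 4 each), and was higher in 4 of 4 pairs. After the length correction its log2 fold change was 0.08. Kif20a averaged 98.6 ± 14.7 CPM in KO DHT and 113 ± 10.9 CPM in KO DMSO and was lower in 3 of 4 pairs. In all, 15 of 40 pair differences were below 0, and 0 of 10 members were lower in 4 of 4 pairs, beside 13.2% of all genes. Kif14, Kif15 and Kif11, 3 of 10, were higher in 4 of 4 pairs, beside 11.3% of all genes. In this comparison 0 of 10 members had every KO DHT library below every KO DMSO library, beside 0.825% of all genes, and 1 of 10, Kif14, had every one above, beside 0.754%.

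Nor did any kinesin pass the test with the Chd1 guide alone. In KO DMSO against WT DMSO, log2 fold changes ran from -0.08 (SE 0.08) for Kif23 to 0.12 (SE 0.11) for Kif11, with a median of 0.01 beside -0.002 for all genes. By edgeR, 0 members were called and 0% of all genes, and 508 genes but 0 members had an unadjusted p under 0.05 (1329 and 0 with the block). DESeq2 called 0 genes, and 9 with the block, none a member. In edgeR without the block, each member's 95% interval included 0, the lowest bound being -0.32, for Kifc1, and the highest 0.36, for Kif11. With the block the SE was 0.078 for Kifc1 and 0.106 for Kif11, beside 0.118 and 0.110 without it. Of 40 pair differences, 23 were below 0, and 1 of 10 members, Kif2c, was lower in 4 of 4 pairs, beside 6.57% of all genes. None was higher in 4 of 4 pairs, beside 6.24% of all genes. No member had every KO DMSO library below every WT DMSO library, beside 0.465% of all genes, or above, beside 0.613%. WT DMSO replicate 1, the shallow library, set the upper end: without it the log2 fold change was 0.0038 for Kif11 and 0.0044 for Kif15, in place of 0.12 and 0.10, and -0.15 for Kif14 in place of -0.07.

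Levels between genes were compared per length, in deposited TPM. In WT DMSO, Kif23 averaged 71.97 ± 9.95, Kifc1 67.1 ± 7.33 and Kif20a 49.9 ± 0.772 TPM (SD, n = 4 each). Next came Kif11 at 35.4 ± 7.43, Kif2c at 31.6 ± 0.761, Kif15 at 31.2 ± 8.18 and Kif18b at 24.99 ± 2.26 TPM. Kif4 averaged 21.3 ± 0.958, Kif20b 17.02 ± 2.81 and Kif14 4.98 ± 1.12 TPM. Library ranges overlapped between Kif23 and Kifc1, along the run of Kif11, Kif2c, Kif15 and Kif18b, and between Kif4 and Kif20b. They did not overlap between Kifc1 and Kif20a, Kif20a and Kif11, Kif18b and Kif4, or Kif20b and Kif14. In KO DHT+ENZ the levels ranged from 3.25 ± 0.697 TPM for Kif14 to 50.4 ± 5.08 TPM for Kif23, with the same genes at each end.

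The rest of the kinesin superfamily serves mostly to carry cargo along axons, cilia and the cytoplasm. Of 33 other kinesin genes, 31 were tested, and Kif2b and Kif12 were listed at 0. Their median log2 fold change was -0.04 over KO DHT and 0.05 over KO DMSO. Of the 31, 20 were below 0 over KO DHT and 11 over KO DMSO. Among those not called, Kif18a was at -0.38 (SE 0.21) and -0.47 (SE 0.21) in these comparisons. Kif24, not called either, was at -0.40 (SE 0.15) and -0.16 (SE 0.15). In the edgeR test 1 was called in each comparison, Cenpe, a kinetochore kinesin that brings chromosomes to the spindle's equator. Cenpe averaged 49.6 ± 5.32 CPM in KO DHT+ENZ, 77.9 ± 4.99 in KO DHT and 72.8 ± 8.93 in KO DMSO (SD, n = 4 each). It fell by 0.65 on the log2 scale against KO DHT (adjusted p = 0.0135, edgeR) and by 0.55 against KO DMSO (adjusted p = 0.0411). Without the block, the call against KO DHT was lost on removing KO DHT+ENZ replicate 2 or KO DHT replicate 3. The one against KO DMSO was lost on removing any of 11 libraries and kept on removing KO DHT replicate 4, KO DMSO replicate 2 or WT DMSO replicate 1, 3 or 4.

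With the replicate block, 4 other kinesins were called lower against KO DHT. They were Cenpe, Kif22, Kifc5b and Kif5c, and against KO DMSO Cenpe, Kif22 and Kifc5b were lower and Kif1a higher. Kif22, a chromokinesin that pushes chromosome arms towards the equator, averaged 51.4 ± 8.79 CPM in KO DHT+ENZ, 71.7 ± 12.6 in KO DHT and 79.2 ± 16.1 in KO DMSO. Its log2 fold change was -0.48 (SE 0.16) over KO DHT (adjusted p = 0.388, edgeR; 0.00138 with the block) and -0.62 (SE 0.16) over KO DMSO (0.191; 0.000226). Kifc5b, the near copy of Kifc1, differed by -0.37 and -0.50. Kif5c, a neuronal cargo motor, was at -0.33 (SE 0.20) over KO DHT (adjusted p = 0.909, edgeR; 0.00849 with the block).

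Kif1a, which carries synaptic vesicle precursors, was the kinesin called higher with the block, at 0.38 (SE 0.12) over KO DMSO (adjusted p = 0.0459; 0.321 without the block, edgeR). With the length correction added to the block it was at 0.32 over KO DMSO and not called (adjusted p = 0.058, edgeR), and at 0.34 over KO DHT and called (adjusted p = 0.042), where the block alone gave 0.27 (adjusted p = 0.171). It averaged 245 ± 20.5 CPM in KO DHT+ENZ, 203 ± 17.4 in KO DHT and 188 ± 15.7 in KO DMSO. The 3 uncalled kinesins with the highest level per length are cargo motors. Kif5b had a log2 fold change of -0.04 (SE 0.11) over KO DHT and 0.08 (SE 0.11) over KO DMSO. For Kif1b the values were -0.11 (SE 0.13) and 0.10 (SE 0.13), and for Kif1c 0.04 (SE 0.08) and 0.01 (SE 0.08).

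**Figure D3:**
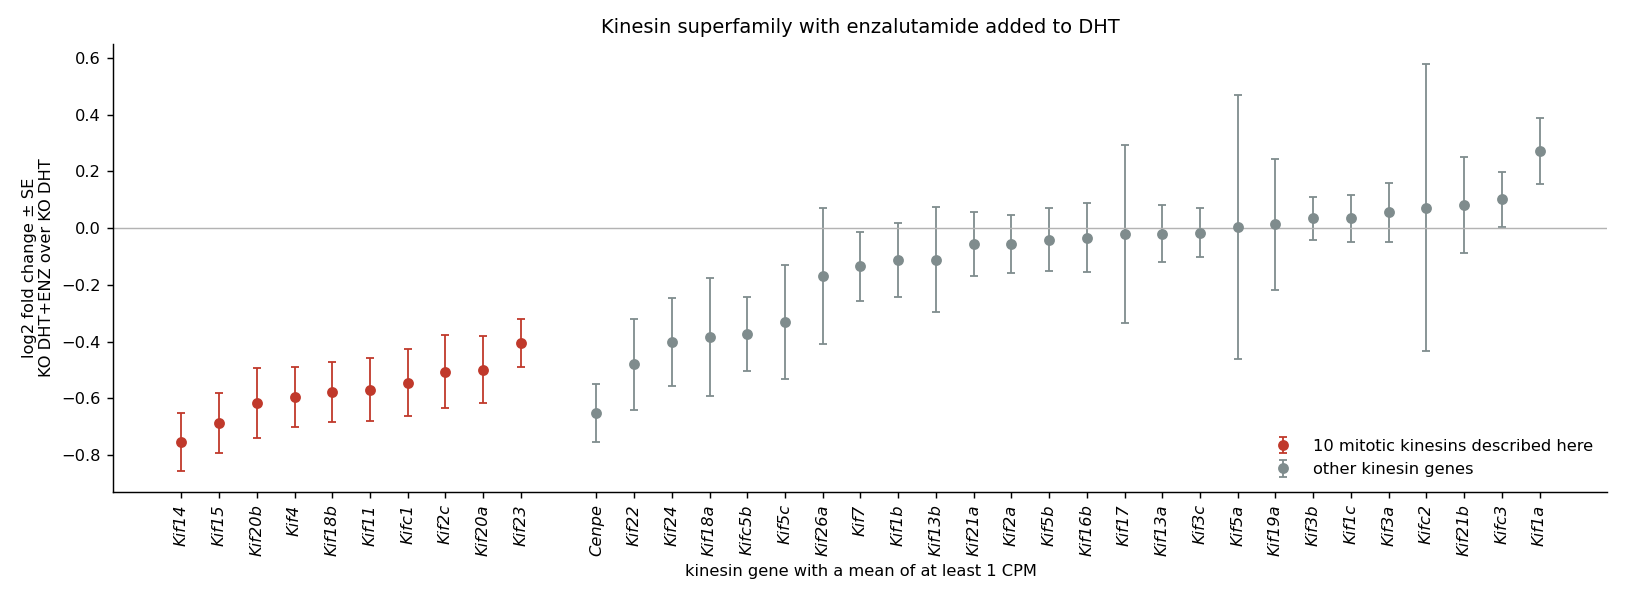
Log2 fold change of KO DHT+ENZ over KO DHT (points, edgeR; bars, 1 SE) for kinesin genes averaging 1 CPM or more, the 10 described here in red and the others in gray, each set ordered by its value. The red points run from -0.75 to -0.40. Gray points at the low end include Cenpe and Kif22, at -0.65 and -0.48, and most others lie near 0. The members were listed by values such as these, so the split between red and gray is not a result.

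Kinesins work with regulators that place and load them. Of 19 partners listed, all had a log2 fold change below 0 in both comparisons, with medians of -0.50 over KO DHT and -0.53 over KO DMSO. In edgeR 2 were called lower against KO DHT and 3 against KO DMSO, and with the block 18 and 15. Prc1, which bundles midzone microtubules and binds Kif4 and Kif14, fell by 0.55 on the log2 scale against KO DHT (adjusted p = 0.0299, edgeR) and by 0.51 against KO DMSO (0.0467). Anln, a scaffold of the contractile ring, fell by 0.48 against KO DHT (adjusted p = 0.038, edgeR). Tpx2, which loads Kif11 and Kif15 on the spindle, fell by 0.61 against KO DMSO (adjusted p = 0.0411, edgeR), as did Ccnb1, the mitotic cyclin, by 0.63 (0.0467). Removing 1 library without the block took the partners called to between 0 and 8 in each comparison, and with the block to between 11 and 18. The calls of Prc1 against KO DMSO and of Ccnb1 held without the block on removing KO DHT+ENZ replicate 3 or WT DMSO replicate 1 alone, and each was lost on removing any of the other 14 libraries. The call of Anln was lost on removing any of 12 libraries, that of Tpx2 any of 10 and that of Prc1 against KO DHT any of 9, WT DMSO replicate 1, 3 or 4 never among them. With the block, none of these 5 calls was lost on removing any of the 16 libraries.

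Racgap1, Nusap1, Ect2 and Hmmr, the partners with the next smallest p, did not pass without the block and passed with it. Racgap1, the partner of Kif23 in centralspindlin, had a log2 fold change of -0.47 (SE 0.12) over KO DHT (adjusted p = 0.000563 with the block, edgeR) and -0.55 (SE 0.12) over KO DMSO. Ect2, the exchange factor that centralspindlin brings to the midzone, was at -0.51 (SE 0.12) and -0.49 (SE 0.12). The spindle protein Nusap1 was at -0.55 (SE 0.12) and -0.56 (SE 0.12), and Hmmr, which acts with Tpx2, at -0.52 (SE 0.12) and -0.44 (SE 0.12).

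Cytoplasmic dynein and dynactin form the motor that walks against most kinesins and serves dividing and resting cells alike. Of their 16 genes, 0 were called in either comparison, with or without the block. By edgeR 1 had an unadjusted p under 0.05 against KO DHT and 0 against KO DMSO. The median log2 fold change was 0.15 over KO DHT and 0.02 over KO DMSO, and 0.04 over KO DHT after the length correction. Dync1li1 was at 0.18 (SE 0.08) and 0.12 (SE 0.08), and Dctn2 at 0.17 (SE 0.09) and 0.03 (SE 0.09). Of 10 tubulin genes, the track, 0 were called without the block, and with it Tuba1c against KO DHT and Tuba1b, Tuba1c, Tubb4b and Tubb5 against KO DMSO, all lower. Their medians were -0.04 over KO DHT and -0.24 over KO DMSO. Single tubulin genes ran from -0.48 to 0.19 over KO DHT and from -0.70 to 0.16 over KO DMSO. Tuba1b was at -0.18 (SE 0.18) and -0.38 (SE 0.18) (adjusted p = 0.00271 with the block over KO DMSO, edgeR), and Tubb4b at -0.11 (SE 0.17) and -0.33 (SE 0.17).

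**Figure D4:**
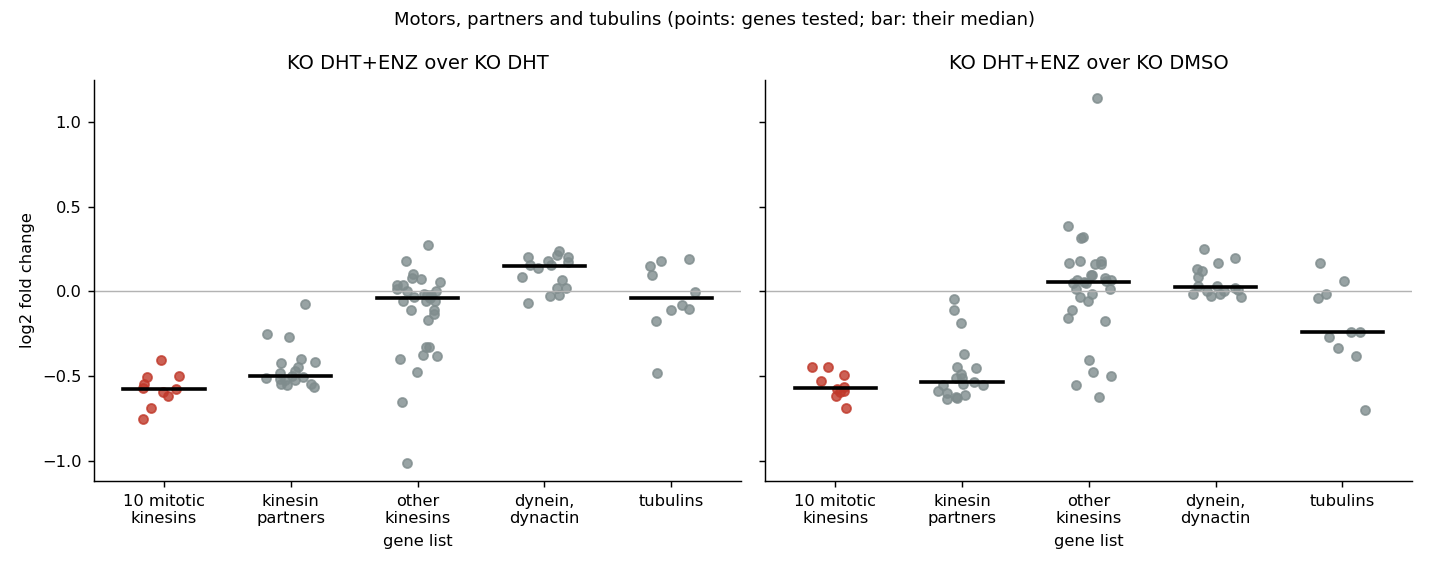
Log2 fold changes (edgeR) of the genes tested in 5 lists, for KO DHT+ENZ over KO DHT on the left and over KO DMSO on the right; each point is a gene and each bar the median of its list. The medians over KO DHT are -0.57 for the 10 kinesins, -0.50 for partners, -0.04 for other kinesins, 0.15 for dynein and dynactin and -0.04 for tubulins.

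Which transcript a member used was not part of how it was listed. The leading transcript held 99.8% of the counts of Kif18b, 99.6% of Kif11, 98.8% of Kif4, 98.5% of Kif2c, 95.8% of Kifc1 and 90.9% of Kif15, averaged over the 16 libraries. Kif14 had 83.1% on a transcript of 8943 bases and Kif23 75.3% on one of 3398 bases. Kif20a divided its counts 53.6% and 36.4% between 2 transcripts. In Kif20b 3 transcripts held 40.3%, 35.3% and 18.6%. The 7 members with more than 1 transcript above 1% were compared in the 4 comparisons, which makes 28 exact permutation tests of 4 against 4 libraries, two-sided, with 0.0286 as the smallest p the design allows.

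None of the 28 passed, and the smallest exact p was 0.286 (0.948 adjusted by Benjamini-Hochberg over the 28). At least 16 of the 28 would have had to reach the smallest p for any to pass, so a shift in a few genes could not have passed, and the result does not show that transcript use was stable. Within same-numbered pairs an exact test could not go below 0.125, so pair differences are given without one. The leading share of Kif23 was lower in 4 of 4 pairs in KO DHT+ENZ than in KO DMSO, by 1.70, 2.65, 5.10 and 4.30 percentage points. It was also lower in 4 of 4 pairs in KO DHT than in KO DMSO, by 2.15, 2.71, 5.86 and 4.32 points, and both comparisons use the KO DMSO libraries. In KO DHT+ENZ against KO DHT it was higher in 4 of 4 pairs, by 0.02 to 0.76 points. No other member's share went one way in all 4 pairs of a comparison. If signs fell at random, a share would go one way in all 4 pairs with a probability of 0.125. With 28 such sets, some are likely to do so, and nothing is read from those of Kif23. Kif20a had 53.1 ± 8.06% of its counts on the leading transcript in KO DHT+ENZ, 50.8 ± 9.23% in KO DHT, 56.7 ± 6.94% in KO DMSO and 53.8 ± 9.39% in WT DMSO (SD, n = 4 each). For Kif20b the shares were 37.6 ± 11.02%, 40.8 ± 6.47%, 42.7 ± 11.5% and 40.2 ± 13.1% in the same groups. Kif14 had 83.6 ± 6.95% in KO DHT+ENZ, 79.1 ± 6.31% in KO DHT, 85.5 ± 7.84% in KO DMSO and 84.0 ± 6.97% in WT DMSO. The libraries of the groups overlapped in these 3 genes, and in Kif20b single libraries ranged from 25.6% to 56.9%. Kallisto infers these shares from reads that transcripts have in common, so part of that spread is in the estimate.

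**Figure D5:**
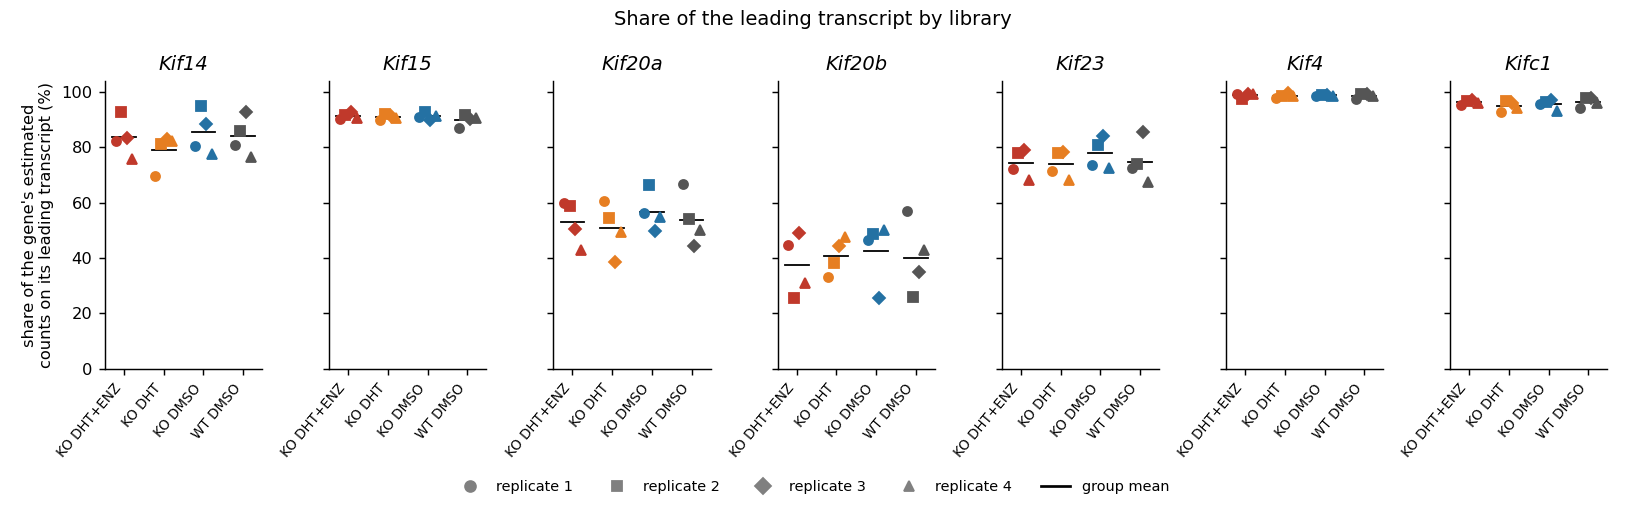
Share of a gene's estimated counts on its leading transcript (percent, axis from 0) in each library for the 7 members with more than 1 transcript above 1%, by group from left to right KO DHT+ENZ, KO DHT, KO DMSO and WT DMSO; marker shape gives the replicate number and the line the group mean. The groups overlap in every panel, and the points of Kif20b spread from 25.6% to 56.9%.

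The members also differ in how far their reads can be told from those of other genes. No 31-base stretch of the leading transcripts of Kif20b and Kif23 occurs in another gene of GENCODE M21, and 0.334% do for Kif18b, 0.337% for Kif14 and 1.51% for Kif15. The share was 8.75% for Kif11, 10.4% for Kif2c and 16.9% for Kif4, most of the last with Pdzd11. The 2 members without any such stretch, Kif20b and Kif23, had log2 fold changes of -0.62 and -0.40 over KO DHT.

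Across the 16 libraries the genes with the pattern most like the mean of the 10 members were Cdca2, Prc1, Top2a, Ncapd2, Fanci, Bub1b, Cep55, Iqgap3, Zwilch and Depdc1b, by the root mean square difference in centred log2 CPM among the 9747 genes averaging 10 CPM or more. That difference was 0.07 for Cdca2, Prc1 and Top2a and 0.09 for Depdc1b, and the median gene stood at 0.31. Members lay between 0.07 (Kif4) and 0.18 (Kif20b) from their own mean. The single nearest gene was Tpx2 for Kif4, Kif2c and Kif20a, and Hmmr for Kif11. For Kif15 it was Kif11, for Kif18b Kifc1, for Kifc1 Incenp, for Kif23 Spag5, for Kif20b Kntc1 and for Kif14 Cenpe. These values describe 16 libraries in 4 groups of unequal level and carry no test.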

How the data were processed

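Per the labels' protocols, libraries came from polyA RNA of integrity number above 8 and were read as 150 bp pairs, aiming at 30 M reads each. Per the submitters' processing notes, the authors quantified reads with kallisto against GRCm39 (versions and strand setting are not given in the sources used here). Per the file headers, each deposited file lists estimated counts (expected counts), TPM, length and effective length per transcript, with no normalization between samples.

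Of 146190 transcripts, 135007 were matched by identifier to 49166 genes of GENCODE M21, used for names only, and held 98.85% to 99.12% of each library's counts. Gene sums of the estimated counts were rounded to whole numbers for edgeR 4.0.16 (R 4.3.3) with TMM, filterByExpr and one quasi-likelihood model of the 4 groups over 16 libraries. P-values were adjusted by Benjamini-Hochberg over the 16971 genes left and called under 0.05. SE is the absolute log2 fold change over the square root of F. CPM carry the TMM factors, and log2 CPM add a prior count of 2. The deposited TPM served for levels between genes and for markers. P-values weigh a difference between groups against the spread between these cultures. In the model without the block, that spread includes differences between replicate numbers.

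Files of one replicate number share a name prefix that the labels do not explain. After group means were removed, same-numbered libraries correlated at r = 0.16 to 0.79 over 9747 genes, above 0.1 in 16 of 16 cases, so the block model is given wherever it changes a call. The block brought edgeR's common coefficient of variation to 0.122, against 0.212 in the model without it.

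Alternatives were DESeq2 1.42.0, RLE factors, library size alone, no filter, the block, a length correction (lowess span 0.3 on transcript length), and leaving out each library. Leaving out single libraries under the block was chosen after seeing the data, except for WT DMSO replicate 1. The edgeR step was tested on simulated counts of independent libraries without a replicate effect. That test does not show how the model behaves on same-numbered libraries that correlate. Scripts used Python 3.11.15, pandas 2.3.3, numpy 2.4.6, scipy 1.17.1 and matplotlib 3.10.9. Earlier results of these data were known when members, lists and the naming rule were set. The rule names the 10 members, Chd1, called genes of the other kinesins with the 3 highest uncalled by TPM, called partners with 4 more by p, called dynein, dynactin and tubulin genes with the 2 smallest p, and the like genes. Kif18a and Kif24 are named outside this rule, for their low values. Protein sequences were not used here.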

Additional observations from a re-analysis of the deposited data

Results flagged for a closer look

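In 40 sets of 4 libraries (10 genes in 4 groups), 4 had a library far from the other 3 by Dixon's gap, and chance flags about 1 set in 20. Kif15 was at 42.6 CPM in WT DMSO replicate 1 and at 57.9 to 60.2 CPM in the other 3 WT libraries. Kif11 was at 87.9 CPM in the same library and at 126 to 134 CPM in the others. That library was the shallowest, with 20.2 M estimated counts. Kif20b was at 20.97 CPM in KO DHT+ENZ replicate 2, against 26.1 to 27.1 CPM in the other 3 of that group. Kif4 was at 78.5 CPM in KO DMSO replicate 3, against 64.2 to 65.7 CPM, and replicate 3 was the highest library for Kif4 in the other groups as well. The part of depth or of the replicate in these values was not tested.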

How the results depend on the processing

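Against KO DHT, 45 genes were called in edgeR, beside 211 with DESeq2, 137 after the length correction, 109 with library size alone and 17 with no filter on low counts. Against KO DMSO the count of 43 became 180, 140, 96 and 9 under the same settings. Members called were 6 against KO DHT and became 10 with DESeq2, the length correction or library size alone and 2 with no filter. Against KO DMSO the 7 became 9 or 10 under those and 1 with no filter. In the models with the replicate number as a block, 591 genes were called against KO DHT (596 with the length correction too, 1031 in DESeq2) and 499 against KO DMSO (625 and 820), with 10 members called in each. The block changed no other call among the members.

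Over both models, removing 1 library left 2 to 1480 genes and 0 to 10 members called against KO DHT, and 0 to 1247 genes and 0 to 10 members against KO DMSO. In each of the 4 cases the highest count without the block was reached on removing WT DMSO replicate 1, as were 1480 and 1247 genes with it. For DHT the count was 0 to 1 gene, 1 with the block and without KO DHT+ENZ replicate 1 or WT DMSO replicate 1. For the Chd1 guide it was 0 to 15, namely 15 with the block and without WT DMSO replicate 4 and 3 without replicate 1, and 9 in DESeq2 with the block. The cause was not tested for any of these shifts.

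In the 40 alternatives, all 400 member estimates kept their direction in each comparison with ENZ (-0.84 to -0.36 on the log2 scale over KO DHT, -0.76 to -0.37 over KO DMSO), as did 382 of 400 for DHT and 390 of 400 for the guide. The members were listed as lower with ENZ and the alternatives refit the same libraries. Nothing is therefore read from the kept direction with ENZ. Estimates near 0 changed sign. For DHT, Kif4 became 0.028 with library size alone, and Kif18b 0.0096 with the length correction, 0.020 with library size alone and 0.0059 with block and length correction. Kif5b over KO DHT became 0.0077 and 0.0074 with the length correction, without and with the block, and Kif1c -0.018 with library size alone. Over KO DMSO Kif1c became -0.015, -0.0096 and -0.019 with the length correction, library size alone, and block and length correction. Chd1 in KO over WT became -0.014 with library size alone.

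On removing 1 library, log2 values for DHT spanned -0.10 to 0.0072 for Kif23, -0.091 to 0.073 for Kif4, -0.16 to 0.024 for Kif2c, -0.085 to 0.051 for Kif18b and -0.14 to 0.0054 for Kifc1. For the guide they spanned -0.023 to 0.18 for Kif15, -0.0068 to 0.16 for Kif20b, -0.025 to 0.21 for Kif11, -0.023 to 0.11 for Kif4, -0.11 to 0.039 for Kif2c, -0.14 to 0.016 for Kifc1 and -0.033 to 0.060 for Chd1. With ENZ they spanned -0.086 to 4.7e-06 for Kif5b and -0.0052 to 0.082 for Kif1c over KO DHT, and -0.030 to 0.063 for Kif1c and -0.023 to 0.071 for Dctn2 over KO DMSO. No transcript share passed its test in any setting, though a few shifts could not have passed.

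WT DMSO replicate 1, at 20.2 M counts, limits values set against WT DMSO. The members were listed from the comparisons with ENZ, cultures were split over 2 litters that the labels do not assign to replicates, and DHT with ENZ was given to KO cells alone. Reads shared with Kifc5b, Cdc23 or Pdzd11 were divided by a model, and the transcripts were named from an annotation of another build.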
